A study of Mus musculus with 2 samples.

Results

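Among single ovarian cells of 3-day-old C57BL mouse pups, 160 barcodes were oocytes with high transcript levels of zona pellucida and growth genes. Of these, 45 came from the library labelled MLT and 115 from that labelled DEHP_MLT. They were chosen from their own counts. A barcode is the sequence tag that stands for 1 captured cell, and a UMI (unique molecular identifier) stands for 1 captured transcript. Each barcode needed at least 5000 UMIs. Per 10000 of its UMIs it needed at least 10 from the germ cell genes Dazl, Sycp3 and Figla together, fewer than 2 from the granulosa cell genes Foxl2 and Kctd14, fewer than 3 from Tsga8 and Tex101, and at least 6 from Zp3, Npm2 and Gdf9. The tables held 10096 barcodes, of which 9186 reached 5000 UMIs and 876 of those met the germ cell limit. The 403 oocytes that met every limit except the last one, 70 labelled MLT and 333 labelled DEHP_MLT, are called low-zona oocytes, and the 160 are called high-zona oocytes.

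The ovaries were taken at postnatal day 3, when primordial follicles form. In both groups the mother received melatonin (MLT) from E16.5 (embryonic day) until postnatal day 3. Mothers of the DEHP_MLT group were gavaged with the phthalate plasticizer DEHP each day, and in the MLT group DMSO was given in its place, so no library lacked melatonin. The study asked whether melatonin relieves the effect of maternal DEHP on the ovaries of the offspring. Each group was 1 library of the 10x Genomics 3′ assay, and the sources used here do not give the number of pups behind it. The 2 count tables carry names that go against the sample titles: that of the sample titled MLT reads DEHP_MLT, and the other reads MLT. Titles and the group field were followed, and every direction between the libraries below would turn round if the table names were right.

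An oocyte that leaves the primordial pool grows for many days while granulosa cells multiply around it. During growth it secretes the zona pellucida, the glycoprotein coat of the egg built from the products of Zp1, Zp2 and Zp3, and it stores proteins and RNAs that the embryo will use before its own genes are active. Npm2 encodes a histone chaperone of the egg, Gdf9 a growth factor that the oocyte sends to granulosa cells, and Khdc3 a subunit of the subcortical maternal complex, a protein assembly under the egg membrane. Transcription factors of the oocyte, among them Figla, Nobox, Lhx8 and Sohlh1, are already active in primordial follicles.

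Because Figla acts through E-boxes, the sequence CANNTG, the 250 bases before the start of genes that were higher in high-zona oocytes were read from RefSeq (GRCm38.p6, the build of the promoter table; the submitters name mm9). 5 of them are shown 5′ to 3′ on the strand of the gene, with each E-box in capitals. They are the rule gene Zp3, 3 members of the subcortical maternal complex, and Elobl, the gene outside the rule with the highest ratio.
Zp3 (chr5:135979855-135980104, + strand): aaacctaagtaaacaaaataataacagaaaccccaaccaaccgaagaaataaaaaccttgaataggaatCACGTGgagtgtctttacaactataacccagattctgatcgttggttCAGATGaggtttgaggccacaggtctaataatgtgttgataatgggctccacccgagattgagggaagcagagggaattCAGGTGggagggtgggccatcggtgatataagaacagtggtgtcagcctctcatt
Khdc3 (chr9:73102148-73102397, + strand): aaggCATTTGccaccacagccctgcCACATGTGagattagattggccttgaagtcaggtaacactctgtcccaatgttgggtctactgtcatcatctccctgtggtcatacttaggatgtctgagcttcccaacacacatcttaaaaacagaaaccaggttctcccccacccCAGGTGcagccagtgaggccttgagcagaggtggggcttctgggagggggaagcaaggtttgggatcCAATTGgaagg
Ooep (chr9:78378589-78378838, - strand): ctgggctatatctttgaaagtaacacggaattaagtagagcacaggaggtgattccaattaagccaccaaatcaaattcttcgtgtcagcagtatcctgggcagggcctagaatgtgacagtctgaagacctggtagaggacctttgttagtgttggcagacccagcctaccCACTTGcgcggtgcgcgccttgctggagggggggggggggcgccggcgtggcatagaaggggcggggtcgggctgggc
Padi6 (chr4:140742644-140742893, - strand): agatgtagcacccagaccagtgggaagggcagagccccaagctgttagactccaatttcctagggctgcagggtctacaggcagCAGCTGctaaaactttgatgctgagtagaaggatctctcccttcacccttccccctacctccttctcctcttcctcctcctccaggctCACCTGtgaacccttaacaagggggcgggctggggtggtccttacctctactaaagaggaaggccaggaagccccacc
Elobl (chr11:88966932-88967181, - strand): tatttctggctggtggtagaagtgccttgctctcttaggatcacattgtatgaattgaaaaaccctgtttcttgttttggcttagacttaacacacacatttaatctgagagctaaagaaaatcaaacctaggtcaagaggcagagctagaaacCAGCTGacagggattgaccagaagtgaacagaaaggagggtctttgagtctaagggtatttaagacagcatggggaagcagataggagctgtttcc
The window of Zp3 held 3 E-boxes, which began 181, 134 and 55 bases before the start of transcription. The window of Khdc3 held 5, of which those at 225 and 223 bases overlap in the run CACATGTG. Ooep had 1 E-box at 78 bases, Padi6 had 2 at 166 and 78 bases, and Elobl had 1 at 96 bases. CANNTG reads the same on both strands, so 1 search covers them. Of the 58 genes counted as higher in high-zona oocytes below, 40 had an entry, and 32 of these genes (80%) held an E-box in at least 1 of their windows. The share was 58.7% over the 2776 tested genes with an entry. Of the 32851 windows searched, counted singly although a gene can have several, 66.2% held one. Windows of 1 chromosome and those without the full length were left out, also from the counts of genes with an entry. TAATTG, the core of sites that NOBOX can bind, was found for 4 of the 40 genes (10%) on either strand, against 4.83% of the tested genes and 7.17% of the windows searched. TGATTG, a letter run searched for Lhx8, was found for 3 (7.5%), against 16.1% and 12.7%. TATAAA, a form of the TATA box, was found for 1 (2.5%), against 7.67% and 12.4%. That match was in Igfbp6, 148 bases before the start. TATAAA was searched on either strand, anywhere in the window and without variant letters, so these shares are no count of TATA boxes. These matches are letters in a window and say nothing of binding.

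High-zona oocytes made up 1.03% of the barcodes with at least 5000 UMIs in the library labelled MLT (45 of 4367, exact Clopper-Pearson 95% interval 0.753% to 1.38%). They made up 2.39% in the library labelled DEHP_MLT (115 of 4819, 1.97% to 2.86%). Among germ barcodes the order of the libraries was the opposite, with 29.0% (45 of 155, 22.0% to 36.9%) labelled MLT and 16.0% (115 of 721, 13.4% to 18.8%) labelled DEHP_MLT. Among high-zona and low-zona oocytes alone, 39.1% (30.2% to 48.7%) and 25.7% (21.7% to 29.98%) were high-zona. The intervals cover counting error only, and with 1 library per group there is no replicate spread and no test between the groups. The shares also depend on the UMI limit, because barcodes went down to 2031 UMIs in the library labelled MLT and only to 6923 in the other. In the library labelled MLT, 25 of the 910 barcodes under 5000 UMIs met all other limits.

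The libraries held 80657690 UMIs (labelled MLT) and 117355739 UMIs (labelled DEHP_MLT), and a barcode had a median of 10834 and 13161 UMIs. Comparisons cover the 21018 genes that both tables list. The libraries shared 4 barcode sequences, and 0 of them were high-zona oocytes. No doublet caller was run here. The limit on Foxl2 and Kctd14 left out 35 and 214 germ barcodes, of which 19 (54.3%) and 76 (35.5%) reached 6 per 10000 for Zp3, Npm2 and Gdf9, and doublets of oocytes with other cells can remain among the 160. The limit on Tsga8 and Tex101 left out 5 and 59 germ barcodes, of which 0 reached that level (exact upper limits 52.2% and 6.06%).

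The score of Zp3, Npm2 and Gdf9 had no gap at its threshold. High-zona oocytes labelled MLT ranged from 6.06 to 36.9 per 10000 with a median of 8.73, and those labelled DEHP_MLT from 6.002 to 41.6 with a median of 10.2. The 3 barcodes just inside were at 6.06, 6.17 and 6.34 in the library labelled MLT, and the 3 just outside were at 5.97, 5.87 and 5.78. In the library labelled DEHP_MLT these were 6.002, 6.05 and 6.08 inside and 5.98, 5.96 and 5.95 outside. The class is therefore the upper range of a graded score. Zp3 was the largest of the 3 terms in 36 of 45 and 100 of 115 barcodes, and its median share of the score was 53.6% and 58.8%. Gdf9 followed with 31.4% and 25.7%, and Npm2 had 7.14% and 10.5%.

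**Figure D1:**
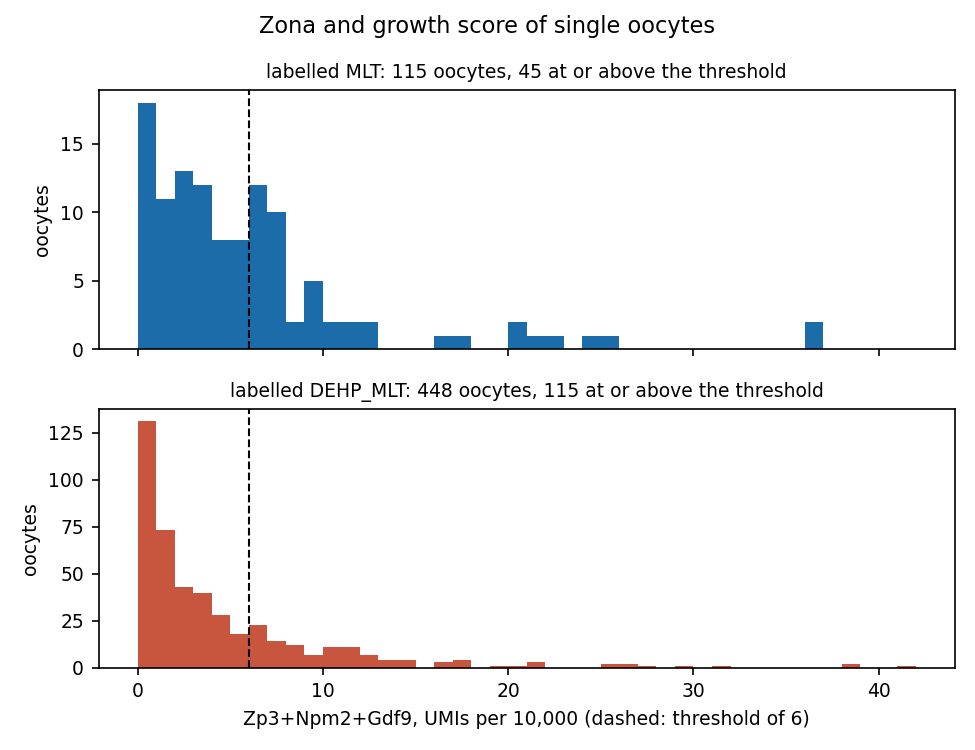
Histograms of the summed level of Zp3, Npm2 and Gdf9 (UMIs per 10000, x axis) over oocytes (number of barcodes, y axis) in each library, with the threshold of 6 dashed. The bars run through the threshold without a gap, and 45 of 115 and 115 of 448 oocytes lie at or above it.

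The labelled cell type was checked on markers. Zp3, Npm2, Gdf9 and Khdc3 were all detected in high-zona oocytes, and the first 3 had chosen them. Zp3 stood at 547 CPM (UMIs per 1000000 UMIs of the class; exact Poisson 95% interval 518 to 577) labelled MLT and 665 CPM (646 to 685) labelled DEHP_MLT, against 130 and 102 CPM in low-zona oocytes. Per barcode it ranged from 1.05 to 19.2 per 10000 with a median of 4.30, and from 1.6004 to 21.1 with a median of 5.78. No high-zona oocyte lacked Zp3.

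Npm2 stood at 163 CPM (148 to 180) and 167 CPM (157 to 176), against 12.4 and 12.6 CPM in low-zona oocytes. Single high-zona oocytes spread from 0 to 19.4 per 10000 (median 0.56) labelled MLT and from 0 to 13.1 (median 1.10) labelled DEHP_MLT, and 7 and 21 of them had no Npm2 UMI. Npm2 was thus high in a minority of the barcodes and low or undetected in the others. Gdf9 stood at 311 CPM (290 to 334) and 298 CPM (285 to 311), against 110 and 82.2 CPM in low-zona oocytes. Its barcodes ranged from 0 to 13.8 per 10000 (median 2.64) and from 0.85 to 13.9 (median 2.74), and 1 barcode had no Gdf9 UMI.

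Khdc3, which the rule did not use, stood at 79.9 CPM (69.2 to 91.9) and 75.9 CPM (69.5 to 82.6), against 34.6 and 19.99 CPM in low-zona oocytes. Per barcode it ran from 0 to 17.5 per 10000 (median 0.69) and from 0 to 18.1 (median 0.61), and 7 and 26 barcodes had none. The ranges of high-zona and low-zona oocytes overlapped for each of these 4 genes, as the plot of single oocytes shows.

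**Figure D2:**
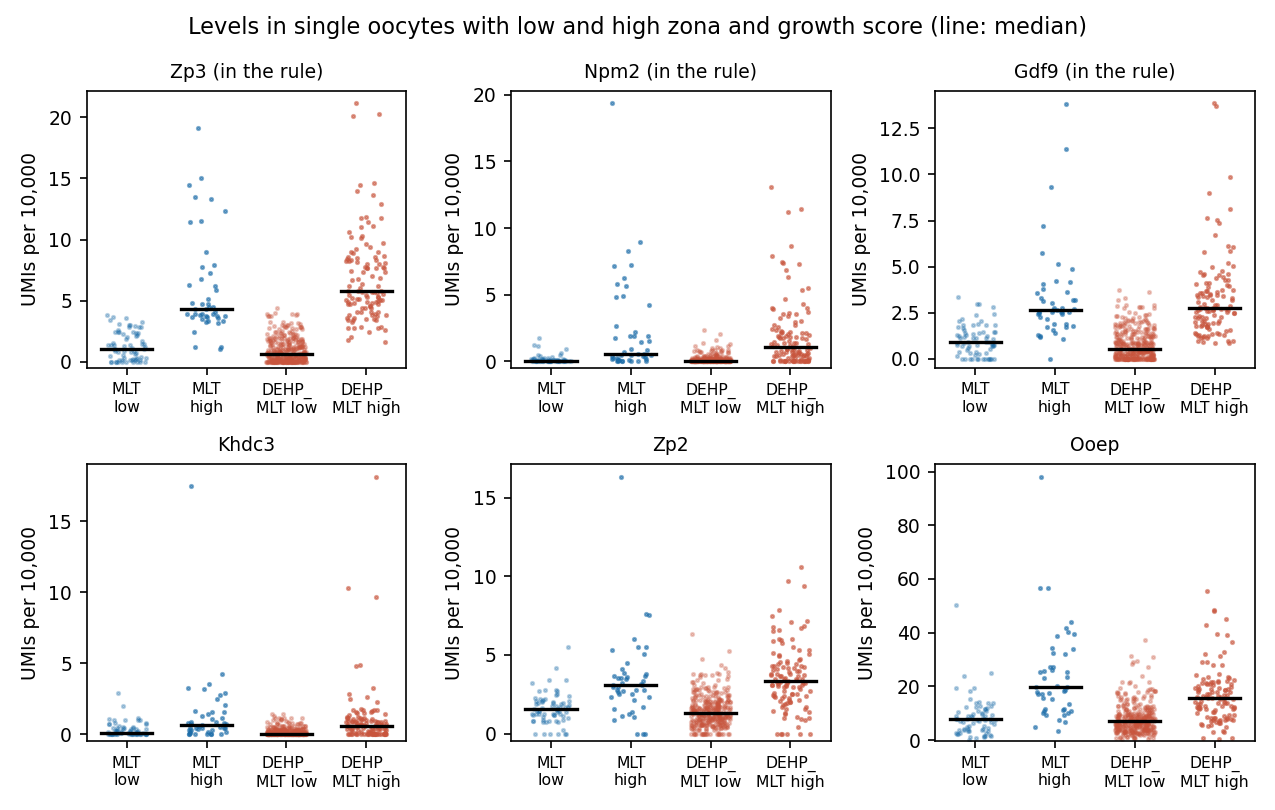
Level of 6 genes (UMIs per 10000, y axis, linear) in every single oocyte, by library and class (low, low-zona; high, high-zona), with the median as a line. Zp3, Npm2 and Gdf9 chose the classes; for Khdc3, Zp2 and Ooep the high-zona medians lie above the low-zona medians in both libraries and the clouds overlap.

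Shares of barcodes with a UMI were compared after each barcode was thinned at random to 5000 UMIs. Khdc3 was then detected in 35.6% and 25.2% of high-zona oocytes, 15.7% and 8.41% of low-zona oocytes, and 4.51% and 2.12% of barcodes outside the germ class (labelled MLT first). Ooep was detected in 100% and 98.3% of high-zona oocytes and still in 40.3% and 29.5% of non-germ barcodes. Non-germ barcodes are only those under the germ cell limit, and some held many oocyte transcripts. The zona pellucida genes summed to as much as 24.9 and 31.5 per 10000 in single ones. Each gene is read against its own share in non-germ barcodes, which is not a level free of oocyte RNA. Before thinning, median depth was 35772 and 49176 UMIs in high-zona oocytes.

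Markers of other cells summed to less than in non-germ barcodes, but erythroid genes were not low in the library labelled DEHP_MLT. The 14 granulosa markers summed to 174 and 133 CPM in high-zona oocytes, against 2757 and 2399 CPM in non-germ barcodes, and 2 and 1 of the 14 were at 0. Foxl2 and Kctd14, which the rule capped, are among the 14, so their sum was partly set by the rule. Per barcode the sum of the 14 ran from 0 to 6.07 per 10000 labelled MLT and from 0 to 13.1 labelled DEHP_MLT. The 9 stroma markers summed to 187 and 179 CPM, against 4378 and 4262 CPM, with 1 library reaching 88.6 per 10000 in a single barcode (labelled DEHP_MLT). Endothelial markers (7 genes) summed to 31.9 and 20.9 CPM, against 280 and 214 CPM in non-germ barcodes. Immune markers (9 genes) summed to 33.5 and 120 CPM, against 590 and 1217 CPM, and reached 39.3 per 10000 in a single barcode labelled DEHP_MLT. Haemoglobin and other erythroid genes (6 in the list) summed to 301 CPM labelled MLT and 5041 CPM labelled DEHP_MLT. Per barcode their sum ran from 1.21 to 7.93 per 10000 labelled MLT and from 26.4 to 407 labelled DEHP_MLT. The erythroid genes summed to 6700 and 55724 CPM in non-germ barcodes of the same libraries.

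High-zona oocytes were shallower than low-zona oocytes. Their UMIs ran from 5259 to 129469 (median 35772) labelled MLT and from 6988 to 204112 (median 49176) labelled DEHP_MLT, against medians of 81538 and 81647 in low-zona oocytes. The number of genes per barcode had medians of 6587 and 7011 against 8668 and 8255. After thinning to 5000 UMIs these medians were 2380 and 2245 against 2367 and 2232, close to each other. The median mitochondrial share was 4.04% and 4.44%, against 4.94% and 5.42% in low-zona oocytes. In the library labelled MLT, 12 of 45 high-zona oocytes (26.7%, 14.6% to 41.9%) had under 1% mitochondrial UMIs, and these had a median of 8271 UMIs. The same held for 4 of 115 (3.48%, 0.956% to 8.67%) in the library labelled DEHP_MLT. In low-zona oocytes this share was 7.14% labelled MLT and 3.90% labelled DEHP_MLT, and in non-germ barcodes 1.19% and 11.6%.

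**Figure D3:**
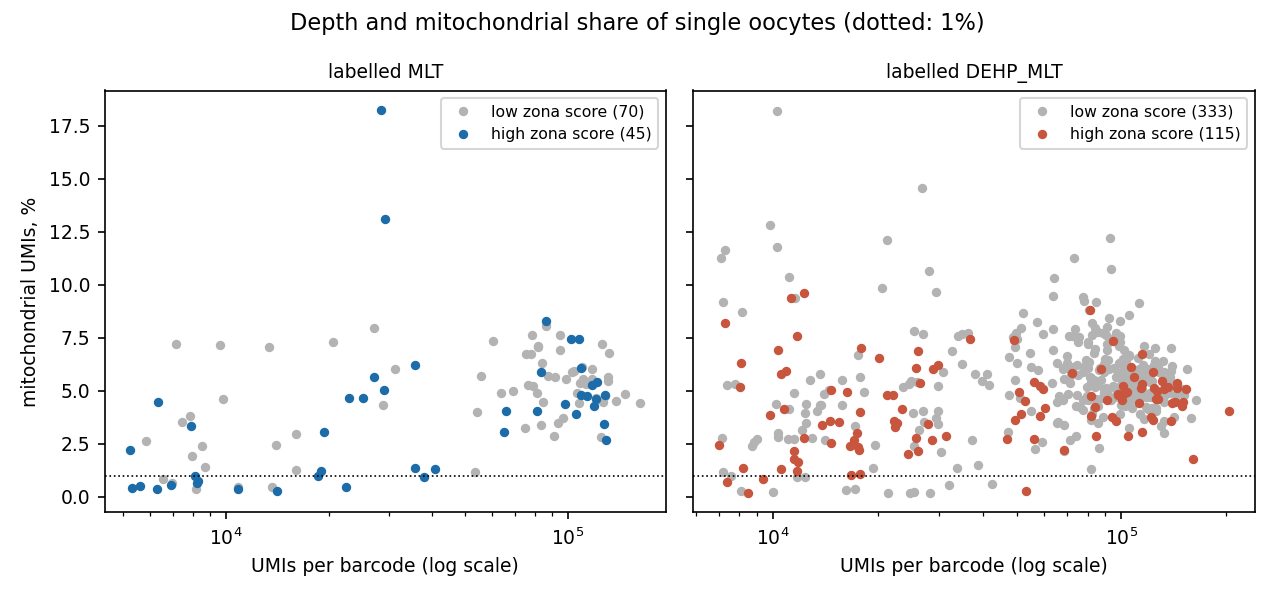
UMIs per barcode (x axis, log scale) against the percentage of mitochondrial UMIs (y axis) for every oocyte, with low-zona oocytes in grey and high-zona oocytes in colour. High-zona oocytes labelled MLT include 12 points under the dotted line at 1%, most of them at low depth.

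Within high-zona oocytes, the summed levels of some genes were highest in the shallow barcodes. Khdc3 stood at 286 CPM (207 to 385) in the 15 barcodes under 20000 UMIs labelled MLT, and at 64.3 CPM (53.6 to 76.4) in the 19 with at least 60000. Labelled DEHP_MLT, these values were 176 CPM (140 to 218) in 37 barcodes and 64.4 CPM (57.8 to 71.6) in 47. Npm2 had the same order, with 446 against 147 CPM and 298 against 156 CPM. Zp3 varied less, with 672 against 516 CPM and 723 against 661 CPM. Npm2 and Zp3 are rule genes, so the limit on the score can shape their levels by depth. Over single barcodes the Spearman correlation with UMIs was weak. It was -0.20 labelled MLT and -0.01 labelled DEHP_MLT for Khdc3, -0.23 and -0.07 for Npm2, and 0.05 in both for Zp3. Mitochondrial share moved with depth in the library labelled MLT, where 10 of the 15 shallow barcodes were under 1%, and its part in these values was not tested.

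High-zona oocytes were next compared with low-zona oocytes of the same library. Beyond the rule genes they had more transcripts of the rest of the zona pellucida, of parts of the subcortical maternal complex and of the oocyte Oas1 genes, while oocyte transcription factors stood at similar levels. Of 3428 genes with at least 50 CPM in either class in both libraries, 58 (1.69%) were at least 1.5-fold higher and 15 (0.438%) at least 1.5-fold lower in both, with Poisson intervals apart in each. In 1 library alone the counts were 79 of 3847 higher (2.05%) and 62 lower (1.61%) labelled MLT, and 103 of 3523 higher (2.92%) and 33 lower (0.937%) labelled DEHP_MLT. The 58 include the 3 rule genes. Since the same cells' counts chose the classes, these are descriptions without a test. Ratios are log2 of CPM plus 1 CPM, and their median over tested genes was -0.05 labelled MLT and -0.02 labelled DEHP_MLT.

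**Figure D4:**
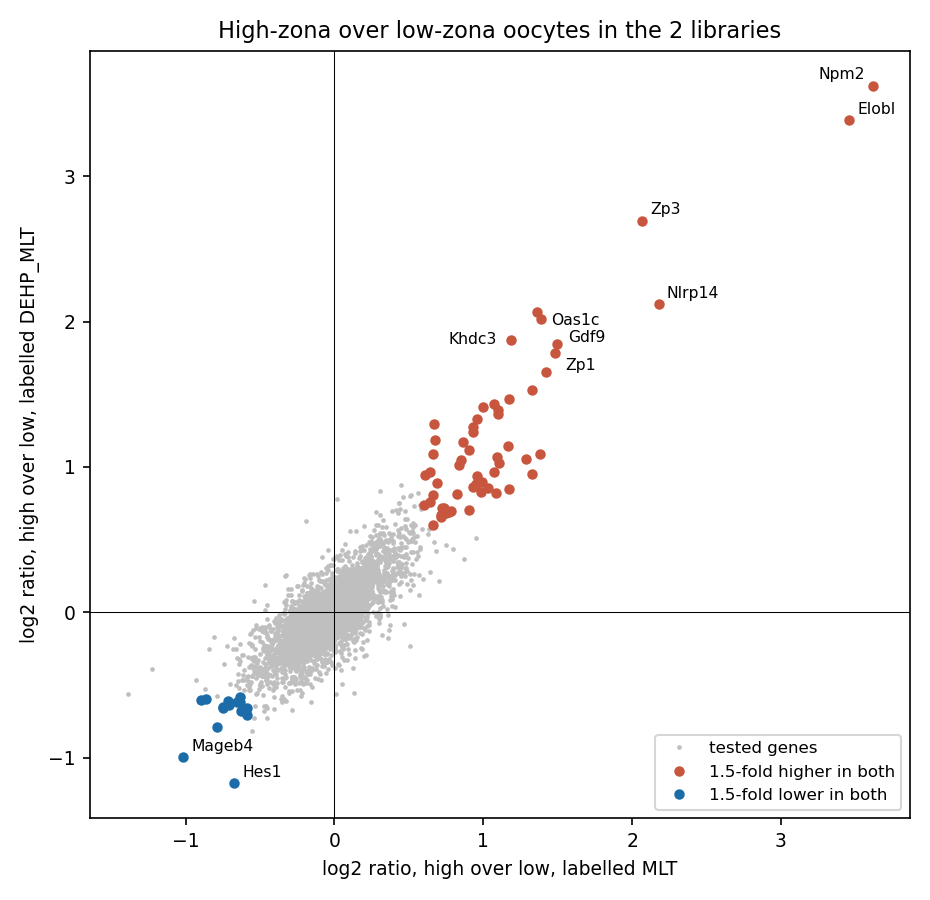
Log2 ratio of high-zona over low-zona oocytes for each tested gene, labelled MLT on the x axis and labelled DEHP_MLT on the y axis; red points are the 58 genes higher and blue points the 15 genes lower in both libraries. The red points reach far up the diagonal at Npm2, Elobl, Zp3 and Nlrp14, while the blue points stay near the cloud.

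All 3 zona pellucida genes were higher, beside 1.69% of all tested genes. They include Zp1 and Zp2, which the rule did not use. Zp1, whose product cross-links zona filaments, stood at 126 CPM (112 to 140) and 172 CPM (162 to 182), against 44.4 and 49.2 CPM in low-zona oocytes. That is a log2 ratio of 1.48 and 1.78. Zp2, whose product is the ligand for sperm in the zona, stood at 317 CPM (296 to 340) and 382 CPM (368 to 397), against 163 and 152 CPM, or 0.96 and 1.33. In both libraries the intervals of the classes did not overlap for either gene.

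Of the 7 measured members of the subcortical maternal complex and its partners, 3 were higher, beside 1.69% of all tested genes. Ooep, a KH-domain subunit, stood at 2138 and 1751 CPM against 875 and 841 CPM (log2 ratios 1.29 and 1.06). Padi6, which is needed for the fibrous lattices of the egg cytoplasm, stood at 871 and 825 CPM against 436 and 310 CPM (0.998 and 1.41). Khdc3 was the third, with 1.19 and 1.87. The other members did not pass in both libraries. Nlrp5, also known as Mater, had 517 against 282 CPM labelled MLT but 458 against 355 CPM labelled DEHP_MLT (0.87 and 0.37). Tle6 had 532 against 461 CPM and 595 against 523 CPM (0.20 and 0.19), and Zbed3 had ratios of 0.40 and 0.54. Nlrp4f had -0.19 and 0.13. The list's median, taking for each gene the smaller of its 2 ratios, was 0.40, beside -0.02 over all tested genes. The complex was thus not uniformly higher.

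Among oocyte growth factors only Gdf9 reached 50 CPM. Bmp15, which pairs with Gdf9 in larger follicles, stood at 4.04 CPM (1.94 to 7.42) and 2.29 CPM (1.31 to 3.73), and 36 of 45 and 105 of 115 high-zona oocytes had no UMI of it. Bmp6, Fgf8 and Gdf3 were all under 8 CPM. Oosp1, an oocyte-secreted protein, was also scarce, at 13.3 and 2.01 CPM, and 40 of 45 and 107 of 115 barcodes had none.

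Other oocyte products were among the highest ratios. Elobl, an elongin B-like gene, stood at 131 CPM (117 to 146) and 70.4 CPM (64.3 to 76.9), against 11.0 and 5.83 CPM in low-zona oocytes (log2 ratios 3.46 and 3.39). It was absent from 13 of 45 and 40 of 115 high-zona oocytes and from 55 of 70 and 275 of 333 low-zona oocytes. Nlrp14, a germ cell gene of the Nlrp family, stood at 222 and 150 CPM against 48.4 and 33.8 CPM (2.18 and 2.12). E330017A01Rik had ratios of 1.42 and 1.66. Of the 23 genes on this list found in the tables only 5 were tested. Of the 5, 3 were higher, beside 1.69% of all tested genes.

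All 4 tested genes of the oocyte Oas1 family, relatives of the antiviral oligoadenylate synthetases, were higher, beside 1.69% of all tested genes. Oas1c stood at 340 CPM (317 to 364) and 286 CPM (273 to 299) against 129 and 69.8 CPM (1.39 and 2.02), and Oas1d had ratios of 1.18 and 1.46. Oas1e had 0.67 and 1.30, and Oas1h had 0.75 and 0.69. The genes of this family resemble one another closely, as do the Nlrp and Khdc1 genes, so reads can be split between copies.

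Of 10 tested maternal chromatin genes, 2 were higher, H1foo and the rule gene Npm2, beside 1.69% of all tested genes. H1foo, the linker histone of the oocyte, stood at 184 and 163 CPM against 85.5 and 61.4 CPM (1.10 and 1.39). Dppa3, which protects maternal methylation marks, stood at 2694 and 2829 CPM against 2366 and 2222 CPM (0.19 and 0.35). Beside 1.69% of all tested genes, 1 of 9 tested genes of maternal RNA storage and decay was higher. That was Btg4, an adaptor for mRNA deadenylation at egg maturation, with 126 and 104 CPM against 65.4 and 42.5 CPM (0.93 and 1.27). Ybx2, an RNA-binding protein of stored transcripts, had 0.06 and 0.02.

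The 7 tested oocyte transcription factors showed none that passed. Figla, a rule gene, stood at 683 and 816 CPM against 690 and 788 CPM (-0.02 and 0.05). Nobox had 293 and 345 CPM against 251 and 279 CPM (0.22 and 0.30). Lhx8 had -0.11 and -0.15, and Sohlh1 had -0.05 and -0.02. Sohlh2, Foxo3 and Stat3 lay between -0.11 and 0.07, and Taf4b, Tbpl2 and Gata4 did not reach 50 CPM.

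Further genes with high ratios outside the lists were Khdc1b (1.36 and 2.06), the kinase gene Map3k6 (1.33 and 1.53), the adhesion glycoprotein gene Smagp (1.10 and 1.37) and the small GTPase gene Rab25 (1.38 and 1.09). Tsga10ip (1.07 and 1.43) and Cox4i2, an isoform of a respiratory chain subunit (1.10 and 1.03), completed the 15 highest ratios chosen by rule. Dppa5a, an RNA-binding protein known from pluripotent and germ cells, stood at 325 and 297 CPM against 152 and 141 CPM (1.09 and 1.07). H2-K1, a classical MHC class I heavy chain, stood at 369 CPM (345 to 394) and 305 CPM (292 to 318), against 189 and 158 CPM (0.96 and 0.94). In non-germ barcodes it stood at 437 CPM labelled MLT and 55.3 CPM labelled DEHP_MLT, so in the second library the oocytes were above the other cells. B2m, which encodes the small subunit of MHC class I molecules, had ratios of 0.13 and 0.76 and did not pass in both libraries.

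Metabolic lists were set beside the 1.69% of all tested genes that were higher and the 0.438% that were lower. None of the 27 tested genes of nuclear oxidative phosphorylation passed, and Cox4i1 had ratios of 0.01 and -0.01. None of the 8 tested glycolysis genes passed, although Aldoa (0.50 and 0.55) and Ldhb (0.35 and 0.58) were on the higher side. Summed over the 18 genes of that list, high-zona oocytes stood at 3965 CPM (3886 to 4044) and 4565 CPM (4515 to 4616), against 3220 CPM (3170 to 3270) and 3510 CPM (3486 to 3533) in low-zona oocytes. Among 15 antioxidant genes, Prdx2 was higher (0.98 and 0.83) and Prdx4, the peroxiredoxin of the endoplasmic reticulum, was lower (-0.65 and -0.62). Of 10 tested genes of Kit, PI3K and mTOR signalling, a pathway that controls primordial follicle activation, none passed. Kit itself, the receptor for a granulosa cell ligand, stood at 221 and 144 CPM against 292 and 182 CPM (-0.40 and -0.33).

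The genes lower in high-zona oocytes were fewer and their ratios smaller. Mageb4, a germ cell gene of the MAGE family, stood at 43.2 CPM (35.4 to 52.2) and 52.9 CPM (47.7 to 58.6), against 88.3 and 106 CPM (-1.02 and -0.99). Tex15, which acts in meiotic recombination and transposon silencing, stood at 455 and 284 CPM against 703 and 455 CPM (-0.63 and -0.68). Hes1, a Notch-responsive repressor, stood at 44.0 and 24.8 CPM against 70.8 and 57.2 CPM (-0.67 and -1.17). Hes1 was far higher in non-germ barcodes (238 and 123 CPM). Neb, Cspp1, Tspan3, Kin, Cetn4, Rbakdn, Hnrnpdl and Crybg3 had ratios between -0.89 and -0.58.

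Of 7 tested synaptonemal complex genes, 1 was lower in both libraries, beside 0.438% of all tested genes. This was 4930447C04Rik (-0.79 in both). In 1 library alone, 2 of 7 were lower labelled MLT and 1 of 7 labelled DEHP_MLT, with list medians of -0.10 and -0.32. Sycp1 had -0.54 and -0.32, and Sycp3, a rule gene, had -0.06 and -0.03. Late meiotic genes were scarce, partly by the rule, which capped Tsga8 and Tex101. Of those it did not cap, Taf7l stood at 10.5 and 10.0 CPM against 18.99 and 22.0 CPM, and Tktl1 at 5.65 and 11.6 CPM against 13.8 and 26.4 CPM. Ly6k had 0 UMIs labelled MLT (upper limit 1.49 CPM) and 2.15 CPM labelled DEHP_MLT, against 10.2 and 6.48 CPM.

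The lower calls were fragile. With a threshold of 10 instead of 6 the ratio of Hes1 labelled MLT was 0.26. In barcodes with under 20000 UMIs, 2 genes were lower and 0 of the 15 were among them, while 25 of the 58 higher genes were still called. In barcodes with at least 60000 UMIs, 50 of the 58 higher and 6 of the 15 lower genes were still called. These depth splits were chosen after the data were seen.

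Levels were then followed along the score, in 6 ranges from under 1 to 20 or more per 10000. Several genes outside the rule were higher in each range than in the one before, on both sides of the threshold. Padi6 stood at 246, 457, 510, 819, 929 and 1108 CPM from the lowest to the highest range labelled MLT, and at 150, 315, 516, 744, 880 and 1112 CPM labelled DEHP_MLT. Zp2 went the same way, from 133 to 500 CPM and from 104 to 561 CPM. Elobl was close to 0 in the lowest range (2.03 and 0.636 CPM) and reached 457 and 224 CPM in the highest. The pattern of Ooep was the same labelled DEHP_MLT (560 to 2405 CPM), while labelled MLT it peaked at 2983 CPM in the range of 10 to 20 and stood at 2392 CPM in the last.

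Khdc3 was highest in the last range. It stood at 51.5 and 50.8 CPM in the range of 6 to 10 and at 251 and 256 CPM in the range of 20 or more, which held only 8 and 14 oocytes. Those 8 and 14 had median depths of 24336 and 17770 UMIs, below the 64896 and 57810 UMIs of the range of 6 to 10. Kit went from 290 to 211 CPM and from 197 to 106 CPM between the lowest and the highest range, and Tex15 from 832 to 325 CPM and from 561 to 140 CPM. Lhx8 and Sohlh1 showed no steady course, and Sohlh1 labelled MLT was at 294 CPM in the last range after 713 CPM in the one before.

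**Figure D5:**
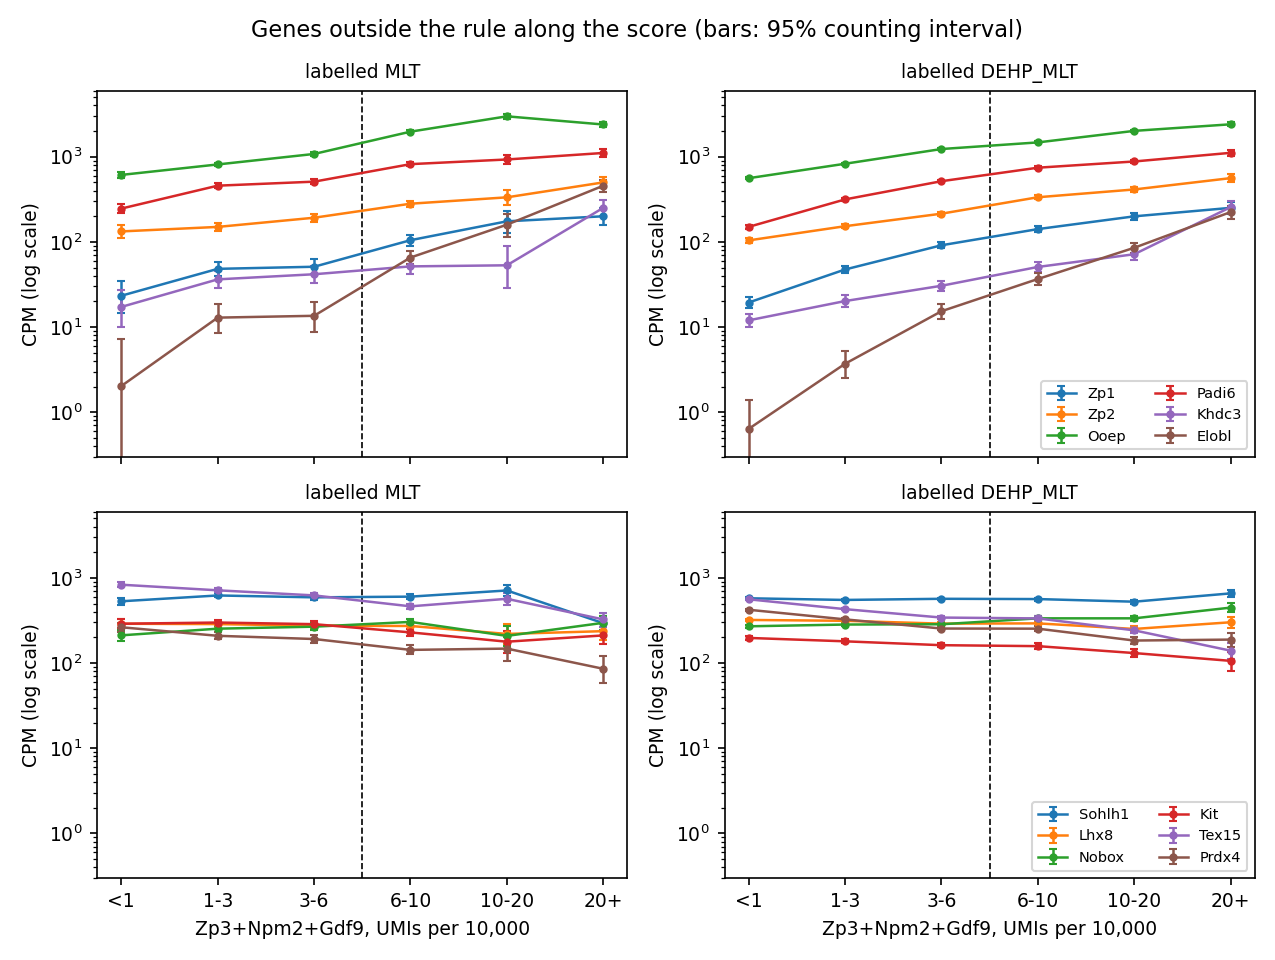
CPM (y axis, log scale) of genes outside the rule in 6 ranges of the summed level of Zp3, Npm2 and Gdf9 (x axis, UMIs per 10000) in each library, with exact Poisson 95% intervals; the dashed line is the threshold of 6. The upper genes climb along the score, Elobl most steeply and Khdc3 mainly in the last range, except that Ooep labelled MLT falls in the last range. In the lower panels Lhx8, Nobox and Sohlh1 have no common trend and Tex15 and Prdx4 decline.

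Genes were also related to each other among the high-zona oocytes themselves. Spearman correlations over 45 and 115 barcodes, which share a library and differ in depth, were 0.50 and 0.55 for Zp2 with Ooep and 0.15 and -0.01 for Zp2 with Nlrp5, none of which the rule used. The rule used Npm2, so its correlation with Khdc3 (0.50 and 0.46) can be shaped by the limit on the score. Correlations among Zp3, Npm2 and Gdf9 are not given, because the limit on their sum shapes them. Depth with mitochondrial share gave 0.58 and 0.23.

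High-zona oocytes of the 2 libraries were compared last. Khdc3 stood at 79.9 and 75.9 CPM (log2 ratio of DEHP_MLT over MLT -0.07), while Dnmt1, Kit, Cdkn1b, Bst2 and B2m were lower and Syce3, Gpx1 and Prdx4 higher labelled DEHP_MLT. Npm2 (0.03), Gdf9 (-0.06) and Zp3 (0.28) chose the oocytes of both libraries at 1 limit, so their levels are no comparison. Of 3683 genes tested, which reached 50 CPM in 1 or both libraries, 39 (1.06%) were at least 1.5-fold higher and 173 (4.7%) at least 1.5-fold lower labelled DEHP_MLT, with intervals apart. The median ratio was -0.05. Scaled by the median ratio over genes instead of the total, the counts were 52 higher and 131 lower. With 1 library per group these values compare 2 libraries, and treatment and library cannot be told apart.

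None of the 3 zona genes, the 7 members of the subcortical maternal complex, the 7 oocyte transcription factors or the 4 Oas1 genes passed between the libraries. Of 5 other growing-oocyte products 1 was lower labelled DEHP_MLT, Elobl, beside 4.7% of all tested genes. It stood at 131 CPM labelled MLT and 70.4 CPM labelled DEHP_MLT (-0.88). In low-zona oocytes it had a ratio of -0.81, and in non-germ barcodes -1.20. Of 2 tested egg membrane and fertilization genes 1 was higher, beside 1.06% of all tested genes. This was Cd9, a tetraspanin of the egg membrane needed for fusion with sperm, at 107 and 165 CPM (0.62). None of 27 oxidative phosphorylation genes passed, with a list median of 0.26.

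Of the meiotic lists, 1 of 6 tested synaptonemal complex genes and the 1 tested late meiotic gene were higher labelled DEHP_MLT, beside 1.06% of all tested genes, and 1 of 11 germ RNA-binding and piRNA genes was lower, beside 4.7%. Syce3, of the central element of the synaptonemal complex, stood at 29.9 CPM (23.5 to 37.5) and 59.1 CPM (53.5 to 65.1), a ratio of 0.96, which was -0.81 in barcodes under 20000 UMIs. Fmr1nb, of the late meiotic list, had 39.2 and 73.7 CPM (0.90), and the piRNA helicase gene Mov10l1 had 230 and 143 CPM (-0.68). Of 11 tested maternal chromatin genes, 0 were higher and 2 lower. Tet3, which oxidizes 5-methylcytosine, had 51.3 and 32.6 CPM (-0.64). Dnmt1, the maintenance DNA methyltransferase, had 125 CPM (111 to 139) and 67.1 CPM (61.2 to 73.5), a ratio of -0.88. Outside these lists, Tex15 had 455 and 284 CPM (-0.68) and Hmga1, an architectural chromatin protein, 40.8 and 84.2 CPM (1.03). Low-zona oocytes had ratios of 0.49 for Syce3, -0.63 for Tex15 and -0.53 for Dnmt1.

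Of 13 tested genes of Kit, PI3K and mTOR signalling, 2 were lower labelled DEHP_MLT, beside 4.7% of all tested genes. Kit stood at 221 CPM (203 to 241) and 144 CPM (135 to 153), a ratio of -0.62, and -0.68 in low-zona oocytes. Cdkn1b, the cell cycle inhibitor p27 that holds follicles in the primordial pool, stood at 69.0 CPM (59.1 to 80.2) and 34.0 CPM (29.8 to 38.6), a ratio of -1.001, which was 0.03 with a threshold of 10. Cdkn1b had -1.07 in low-zona oocytes and -1.16 in non-germ barcodes, so the difference was of the same size outside the oocytes. Among the 12 highest and 12 lowest genes named by rule were also the histone gene Hist1h2ap (176 and 435 CPM, 1.30) and Malat1, a nuclear noncoding RNA (3551 and 1329 CPM, -1.42). Their ratios in non-germ barcodes were 1.53 and -0.96. Over the 212 genes that passed, 99 were also at least 1.5-fold apart in the same direction in low-zona oocytes and 116 in non-germ barcodes.

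Of the interferon-induced and MHC class I list, 5 genes were tested and 3 were lower labelled DEHP_MLT, beside 4.7% of all tested genes. Bst2 stood at 56.5 CPM (47.5 to 66.7) and 24.7 CPM (21.1 to 28.6), a ratio of -1.16, Ifitm3 at 69.4 and 31.8 CPM (-1.10) and B2m at 86.0 and 45.0 CPM (-0.92). H2-K1, at 369 and 305 CPM, had -0.28. The whole list of 26 genes summed to 1024 and 570 CPM in high-zona oocytes, 877 and 397 CPM in low-zona oocytes, and 5319 and 2517 CPM in non-germ barcodes. Its level in the surrounding cells moved the same way, and the part of free RNA in the oocyte values was not tested. Gbp7, an interferon-induced GTPase, reached 50 CPM in neither library and so was not among the 5 tested genes. It stood at 48.0 CPM labelled MLT and 0.574 CPM labelled DEHP_MLT. Within the first library it stood at 299 CPM (218 to 401) in the 15 shallow barcodes and 34.6 CPM (27.0 to 43.8) in the deepest 19.

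Antioxidant genes numbered 15, of which 2 were higher labelled DEHP_MLT, beside 1.06% of all tested genes. These were Gpx1 (78.3 and 144 CPM, 0.87) and Prdx4 (135 and 222 CPM, 0.71). Gpx1 had 201 and 885 CPM in non-germ barcodes. The 4 tested haemoglobin genes were all higher labelled DEHP_MLT, with 60.6 and 1095 CPM for Hba-a1 (4.15), and the summed erythroid level differed in the same direction in non-germ barcodes, as given above.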

How the data were processed

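Cells were grouped by sample title, 1 library per group, and the labels give no separate animals, so no replicate spread was available. Per the submitters' processing notes, Cell Ranger (no version given) and Seurat 4.2.0 were used and mm9 was the build; the sources used here name no annotation. The authors deposited raw UMI counts per gene and barcode, whole numbers with no normalization, and 0 columns were left unmapped. UMIs were summed over the barcodes of a class, scaled to CPM of the class total and compared as log2 of CPM plus 1, which understates low genes. A gene was counted as higher or lower at 50 CPM or more, a 1.5-fold difference and separate exact Poisson 95% intervals, in both libraries for the comparison of classes. Intervals cover counting error only, and the depth per library is given above. Thinning used a fixed seed.

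The members, the 29 gene lists and the limits were chosen with earlier results of these data known. Genes were named by rule: the 15 highest and 15 lowest ratios between classes and the 12 highest and 12 lowest between libraries, without rule genes, mitochondrial, ribosomal and haemoglobin genes and Gm or Rik models, every member of 5 lists (zona pellucida, subcortical maternal complex, growth factors, transcription factors, late meiotic genes), and up to 4 extremes and the most abundant gene of other lists. Not every gene that meets this rule is reported here. The ratio computation was tested on simulated data. Alternatives were other thresholds, depth limits, scaling, pseudocount, filter and weighting. Promoters came from a RefSeq table. The work was done in Python 3.11.15 with pandas 2.3.3, numpy 2.4.6 and scipy 1.17.1, and figures were drawn with matplotlib 3.10.9.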

Additional observations from a re-analysis of the deposited data

Results flagged for a closer look

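In the library labelled MLT, 25 barcodes that no comparison used met the zona and growth limit of 6 per 10000. They had fewer than 5000 UMIs (2038 to 4730, median 2770) and met all other limits of the rule, which is 2.75% of the 910 barcodes below that depth (exact 95% interval 1.79% to 4.03%). They were chosen partly on Zp3, which stood at 613 CPM (447 to 821). Over all 25, Zp3 rested on 45 UMIs, Npm2 on 16 and Gdf9 on 23. At this depth a few UMIs therefore set whether a barcode met the limit, and the share is no comparison with those at higher depth. Of genes the rule did not use, Zp2 stood at 259 CPM (156 to 404), Ooep at 2031 CPM (1718 to 2384) and Padi6 at 736 CPM (553 to 960). Khdc3 rested on 6 UMIs and stood at 81.8 CPM (30.01 to 178). B2m stood at 191 CPM (104 to 320) and Gbp7 at 95.4 CPM (38.4 to 197), beside 86.0 and 48.0 CPM in the 45 high-zona oocytes of that library. The median mitochondrial share of the 25 was 1.19%, and 11 of the 25 were under 1%. The library labelled DEHP_MLT had no barcode below 5000 UMIs, so no counterpart could be counted.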

How the results depend on the processing

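The share of high-zona oocytes depended on the limits. With a threshold of 4 per 10000 it was 1.40% of barcodes and 39.4% of germ barcodes labelled MLT, and 3.34% and 22.3% labelled DEHP_MLT. With a threshold of 10 it was 0.366% and 10.3%, and 1.22% and 8.18%. With Foxl2 and Kctd14 below 0.5 it was 0.618% and 17.4%, and 1.74% and 11.7%, and with scores from barcodes thinned to 5000 UMIs 0.687% and 18.1%, and 1.70% and 11.7%. Above 10000 UMIs the share of barcodes labelled DEHP_MLT was 2.98%. Where both libraries are given here, their order was kept. For the share of barcodes the exact intervals of the libraries were apart in each such setting. For germ barcodes they were apart only at a threshold of 4 (31.6% to 47.5% labelled MLT, 19.3% to 25.5% labelled DEHP_MLT). They overlapped at a threshold of 10 (6.02% to 16.2% and 6.29% to 10.4%). The same held with Foxl2 and Kctd14 below 0.5 (11.8% to 24.3% and 9.4% to 14.2%) and with thinned scores (12.5% to 24.8% and 9.41% to 14.3%).

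Of the 58 higher genes, 51 were called at a threshold of 4, 43 at 10, 45 with thinned scores and 54 with equal weight per cell. The count was 226 with no filter on low values and 34 in barcodes under 20000 UMIs. The count of lower genes, 15 in the main setting, was 6 at a threshold of 4, 29 at 10 and 4 with a pseudocount of 10 CPM. It was 53 with no filter, 9 with median scaling, 9 in barcodes of at least 60000 UMIs and 2 under 20000. Of the 15 themselves, 6 were still called at a threshold of 4 and 5 at 10. Between the libraries the count of higher genes, 39 in the main setting, was 212 at a threshold of 10 and 24 with a pseudocount of 10 CPM. It was 128 with no filter and 59 under 20000 UMIs. Of the 39 themselves, 22 were still called at a threshold of 10 and 11 under 20000 UMIs. The count of lower genes, 173 in the main setting, was 338 at a threshold of 10 and 369 with equal weight per cell. It was 113 with a pseudocount of 10 CPM and 670 with no filter. Of the 173 themselves, 99 were still called at a threshold of 10 and 41 under 20000 UMIs. No gene called here passed in the opposite direction under any of the 11 alternatives.

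Signs turned for Hes1 labelled MLT (0.26) and for Cdkn1b between the libraries (0.027) at a threshold of 10. Under 20000 UMIs they turned for Neb (0.39), Crybg3 (0.48) and AY036118 (-0.53) labelled MLT, for Tspan3 labelled DEHP_MLT (0.35), and for Syce3 (-0.81) and Clpp (-0.32) between the libraries. The cause was not tested. No paired analysis was possible because each group is 1 library, and no replicate could be left out.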

Other observations

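Genes outside every list also stood higher in high-zona oocytes in both libraries; those given here were chosen after their values were seen. Of genes known for chromosome segregation, Pttg1 (securin) stood at 239 and 272 CPM against 134 and 134 CPM in low-zona oocytes, and Nusap1, a spindle protein, at 153 and 141 CPM against 95.9 and 80.3 CPM. G6pdx, the first enzyme of the pentose phosphate pathway, stood at 75.1 and 64.7 CPM against 32.8 and 35.4 CPM. Selenow, a small selenoprotein, stood at 516 and 439 CPM against 205 and 226 CPM. Genes of secreted proteins were Il34, a ligand of the macrophage receptor Csf1r (82.0 and 78.2 CPM against 38.2 and 43.7 CPM), Ptgds, a prostaglandin D synthase (144 and 147 CPM against 67.8 and 74.7 CPM), and Plat, the tissue plasminogen activator (63.4 and 54.2 CPM against 32.4 and 28.9 CPM). All were at least 1.5-fold apart in each library, and no test was made.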
